A study of Mus musculus with 2 samples.

Results

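Interferon-stimulated genes are the transcripts that a cell makes more of when an interferon reaches it. The 44 described here were taken by their symbols from the gene lists of both libraries, and all 44 symbols sought were found among 34144 genes. Their UMIs (unique molecular identifiers, each standing for a captured RNA molecule) were counted in 22403 cells of the adult library and 18975 cells of the old library. Most of what follows concerns CAR-like cells, the CXCL12-abundant reticular stroma of the marrow, which made up 15078 of the adult and 14202 of the old cells.

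Both libraries came from wild-type C57BL6 mice (C57BL6J in the protocol), the one labelled adult and the other old. Age is given as that word alone, and the sources used here state neither the months nor the sex, number or pooling of the mice. Both carried the same handling: long bones were flushed and digested with collagenase IV, dispase and DNase, red cells were lysed, haematopoietic cells were removed with an autoMACS separator, and living cells were sorted by scatter and DAPI before droplet capture of RNA 3′ ends. With 1 library per age, age cannot be told apart from the mice, the preparation or the run, no p-value is given, and every interval covers counting error only.

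Interferons signal through paired receptors to JAK kinases and STAT factors. Type I and type III interferons assemble a complex with Stat2 and Irf9 that binds the interferon-stimulated response element, whereas type II interferon (Ifng) acts through the gamma-activated site. The genes switched on detect foreign nucleic acid, block viral translation and budding, tag proteins with Isg15, or attack the vacuoles of intracellular microbes. In marrow, both kinds of interferon are known to act on blood stem cells and on the stroma that houses them.

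The shared regulatory sequence of the members is shown first, because the choice of members did not use it. Promoter windows reaching from 250 bases before to 50 bases after the annotated start were read from RefSeq (GRCm38.p6, an older build than the GRCm39 of the counts), and 31 of the 44 members had an entry. The response element was searched as GAAANNGAA and the gamma-activated site as TTCNNNGAA, on both strands, with overlapping matches counted. GAAANNGAA occurred in 20 of the 31 members (64.5%) and in 9.76% of all 27025 genes with an entry (8.56% of 32851 promoters of that length). TTCNNNGAA occurred in 11 of the 31 (35.5%) and in 9.55% of all genes, and 7 members held both. A match is a run of letters and not a measured binding site.

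Stretches upstream of the start are printed below on the gene's own strand, 5′ to 3′, with matches in capitals. They were picked from members that hold a match, to show the arrangement of these letters. Cmpk2, Dtx3l, Ifi47, Irf7, Irf9, Oasl2 and Xaf1 held neither motif, and Iigp1 was among the members without an entry. On the strand printed, a reversed response element reads TTCNNTTTC.
Ifit1 (chr19:34640759-34640828, plus strand): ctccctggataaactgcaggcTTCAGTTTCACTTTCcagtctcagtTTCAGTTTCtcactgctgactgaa
Ifit3 (chr19:34583349-34583448, plus strand): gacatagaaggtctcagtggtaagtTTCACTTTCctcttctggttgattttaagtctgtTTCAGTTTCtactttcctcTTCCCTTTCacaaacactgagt
Isg15 (chr4:156200859-156200918, minus strand): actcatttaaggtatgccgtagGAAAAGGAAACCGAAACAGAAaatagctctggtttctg
Oas1a (chr5:120907526-120907635, minus strand): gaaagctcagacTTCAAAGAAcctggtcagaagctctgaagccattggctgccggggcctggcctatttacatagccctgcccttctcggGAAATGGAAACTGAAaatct
Igtp (chr11:58199486-58199545, plus strand): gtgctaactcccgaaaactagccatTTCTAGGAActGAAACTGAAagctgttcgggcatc
Irgm2 (chr11:58214877-58214936, plus strand): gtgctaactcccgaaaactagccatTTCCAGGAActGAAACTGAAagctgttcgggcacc
Gbp2 (chr3:142620583-142620632, plus strand): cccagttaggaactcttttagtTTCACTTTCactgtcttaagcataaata
Irf1 (chr11:53769904-53769953, plus strand): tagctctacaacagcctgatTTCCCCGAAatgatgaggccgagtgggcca

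Ifit1, Ifit3 and Isg15 each held 3 matches to GAAANNGAA and none to TTCNNNGAA. In Isg15 the 3 matches overlapped in a single run, from base -78 to base -58 before the start. The printed 100 bases of Ifit3 recur without a difference upstream of Ifit3b (chr19:34607745-34607844), a gene of the same family. These bases lie before the start and do not show how alike the transcripts are. How the counting treated reads that match both genes was not tested, so the levels of both are uncertain. Igtp and Irgm2, which are neighbours on the chromosome, were identical at 58 of 60 bases and carried both motifs side by side. Irf1 held TTCNNNGAA alone, at bases -90 to -82. Several members also sit next to each other in the RefSeq gene order: Igtp with Irgm2, Rsad2 with Cmpk2, Parp14 with Dtx3l and Parp9, Ifit2 with Ifit3, Gbp5 with Gbp7 and Gbp3, and Oas2 with Oas3, which makes 6 runs holding 14 of the 42 members placed.

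The adult library held 208637421 UMIs in 25635 barcodes and the old library 229917243 in 22298, and the kept cells had medians of 7139 and 7736 UMIs. Cell types were assigned by summed marker UMIs, and cells that passed more than 1 marker gate (8.31% of adult and 1.40% of old cells) were left out as possible doublets or mixtures. In adult CAR-like cells the defining markers ranged from 438 CPM (UMIs per 1000000 UMIs of the type) for Foxc1 to 8351 CPM for Cxcl12, and all 8 were also detected in the old. Osteolineage markers averaged 0.967% of UMIs per adult and 0.470% per old CAR-like cell, and endothelial markers 0.0117% and 0.00510%, over cells of at least 3000 UMIs. The 2 libraries shared 108 barcodes among kept cells. The part of these differences in the results was not tested.

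In CAR-like cells nearly the whole family stood higher in the old library. Summed over the 44 members, 0.247% of adult UMIs and 0.324% of old UMIs were member UMIs, a 1.31-fold ratio (log2 0.39, 95% counting interval 0.39 to 0.40). A member entered the gene-by-gene comparison when its mean over the 2 libraries reached 5 CPM and it had at least 50 UMIs, which 39 of 44 did, and 37 of these 39 were higher in the old library (94.9%, against 53.1% of the 11006 genes compared). The steps were small: the median log2 ratio was 0.45 for the 39 members and 0.03 for all genes, and only Ifi27l2a reached 2-fold. Of all genes compared, 3.02% reached 2-fold upwards and 2.28% downwards in old over adult, so 1 of 39 members past 2-fold is a share (2.56%) near that of all genes. The counting interval lay above 0 for 34 members, below 0 for Samhd1 and Irf1, and held 0 for Isg15, Ifi35 and Mx2. At this depth even the log2 ratio of -0.09 for Irf1 lay clear of 0. The share of all genes with an interval clear of 0 was not computed, so these counts have no background beside them.

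**Figure D1:**
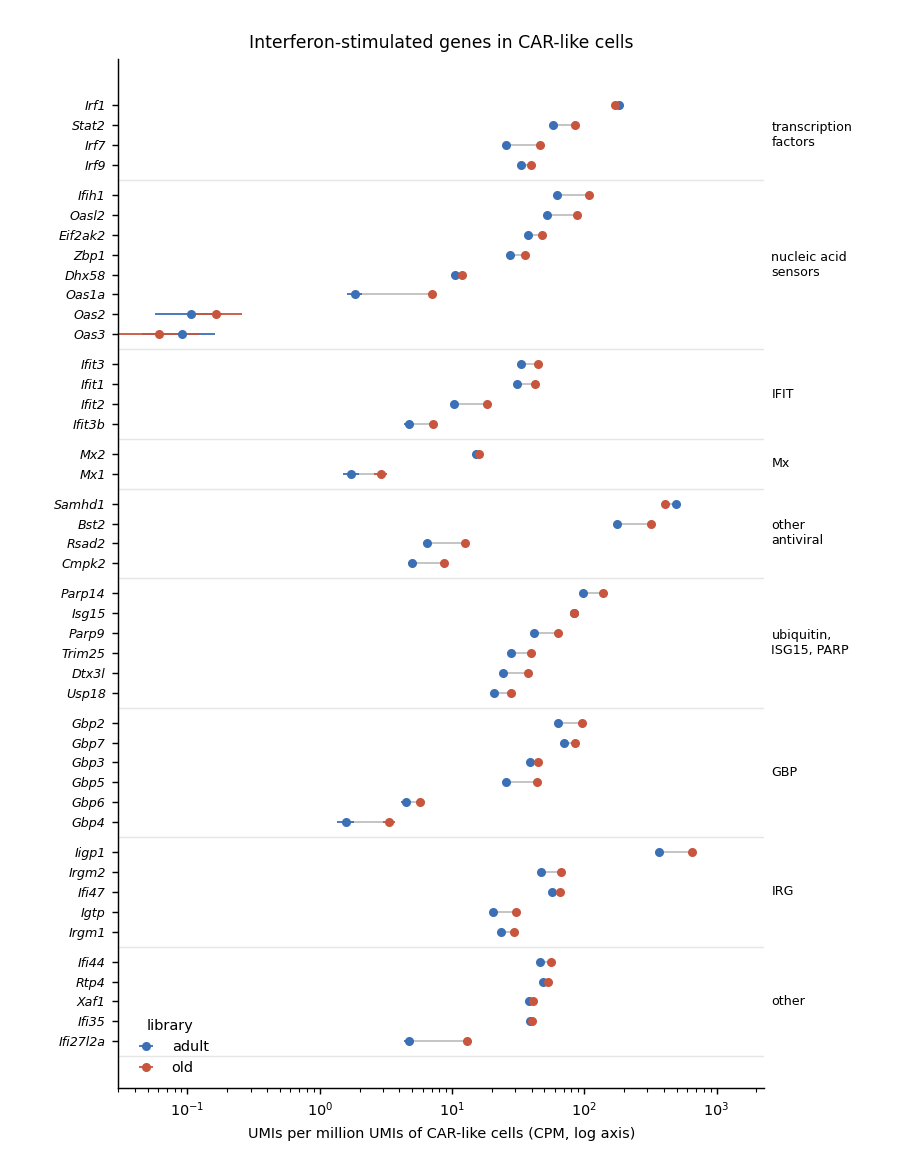
Level of each of the 44 members in CAR-like cells of the adult (blue) and old (red) library, in CPM on a log axis, grouped by role; horizontal lines are 95% Poisson intervals, often narrower than the point. Red lies right of blue for nearly every member, with Samhd1 (498 against 407 CPM) and Irf1 (182 against 171 CPM) the other way round among the abundant ones.

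Iigp1 held the largest single part of the difference in the summed level, and the rest was spread over the family. The sum was 2465 CPM (adult) and 3240 CPM (old), and Iigp1 alone held 36.7% and Bst2 18.7% of the difference, while Samhd1 took away 11.7%. Without Iigp1 the sum was 2096 and 2586 CPM (1.23-fold). Without Iigp1, Bst2 and Samhd1 it was 1422 and 1858 CPM (1.31-fold). Because the chemistry counts each captured molecule once at its 3′ end, CPM is given without division by transcript length, and capture may still differ between genes.

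Among the transcription factors, Stat2, a subunit of the response complex, had 58.3 CPM in adult against 85.7 CPM in old CAR-like cells (log2 0.55). Irf7, which amplifies type I interferon production, stood at 25.5 and 46.0 CPM (log2 0.85, interval 0.79 to 0.91). Irf9, the DNA-binding subunit of the complex, differed less, at 33.5 and 39.2 CPM (log2 0.23). Irf1, a factor that type II interferon and inflammatory signals both induce, was the most abundant of the 4 and was slightly lower in the old library, at 182 and 171 CPM (log2 -0.09, interval -0.12 to -0.07). The factors of the type I complex and Irf1 thus lay on opposite sides of 0.

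Of the 8 sensors and nucleic acid-activated enzymes, 5 passed the minimum and all 5 were higher in the old library. Ifih1 (MDA5), which binds long double-stranded RNA, had 62.7 CPM and 108 CPM, adult then old (log2 0.79). Oasl2, of the oligoadenylate synthetase family, had 52.5 and 88.0 CPM (log2 0.75). Eif2ak2 (PKR), the kinase that halts translation on double-stranded RNA, had 37.3 and 48.1 CPM (log2 0.37), and Zbp1, a sensor of left-handed nucleic acid that can trigger necroptosis, 27.5 and 35.4 CPM (log2 0.36). Dhx58 (LGP2), a regulator of Ifih1, was the closest at 10.5 and 11.9 CPM (log2 0.19). Oas1a did not pass the minimum but had the widest gap of any member, with 225 UMIs (1.85 CPM) in adult against 821 UMIs (7.11 CPM) in old cells (3.85-fold, log2 interval 1.73 to 2.16).

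The IFIT proteins, which bind viral RNA and block its translation, were higher in the old library in all 4 cases. Ifit3 stood at 33.3 and 44.5 CPM (log2 0.42) and Ifit1 at 31.0 and 42.5 CPM (log2 0.45). Ifit2 was less abundant and further apart, at 10.4 and 18.5 CPM (log2 0.83). Of the Mx dynamin-like GTPases, which trap viral particles, Mx2 was alike within counting error at 15.1 and 16.0 CPM (interval -0.01 to 0.17).

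The other antiviral effectors lay on both sides of a ratio of 1. Samhd1, which degrades the nucleotides that reverse transcription needs, was the leading member of the adult library at 498 CPM and stood at 407 CPM in the old (log2 -0.29, interval -0.31 to -0.27). Bst2 (tetherin), which holds budding virus at the cell surface, went the other way, at 176 CPM in adult against 321 CPM in old cells (log2 0.87, interval 0.84 to 0.89). Rsad2 (viperin), which makes a chain-terminating nucleotide, was scarce and lay just under 2-fold, at 6.52 and 12.5 CPM (log2 0.94).

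All 6 genes of the ubiquitin, Isg15 and ADP-ribose group were at or above their adult level. Isg15, the ubiquitin-like modifier that is often read as the marker of an interferon response, was the exception to the general shift: it had 83.1 CPM in adult against 83.3 CPM in old cells (log2 0.00, interval -0.04 to 0.04). Usp18, which strips Isg15 from proteins and damps the type I receptor, had 20.8 and 27.8 CPM (log2 0.42), and Trim25, a ubiquitin ligase of the RNA-sensing pathway, 27.7 and 39.6 CPM (log2 0.52). The neighbours Parp14, Parp9 and Dtx3l, an ADP-ribosyltransferase pair and a ubiquitin ligase that binds Parp9, lay close together on the log2 scale at 0.51, 0.61 and 0.63. Parp14 was the most abundant of them, at 97.2 and 139 CPM, before Parp9 at 41.4 and 63.3 CPM and Dtx3l at 24.4 and 37.8 CPM.

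The GTPases that act on microbe-containing vacuoles were higher in the old library in 10 of 10 cases past the minimum. Among the guanylate-binding proteins, Gbp5 (25.7 and 43.7 CPM, log2 0.76) and Gbp2 (63.1 and 95.8 CPM, log2 0.60) were furthest apart. Gbp7 (69.7 and 84.4 CPM, log2 0.28) and Gbp3 (39.0 and 44.8 CPM, log2 0.20) differed less. Iigp1 (Irga6), an immunity-related GTPase that coats vacuoles, was the leading member of the old library, with 654 CPM there against 370 CPM in the adult (log2 0.82, interval 0.81 to 0.84). Its relatives were far scarcer: Irgm2 had 47.2 and 67.0 CPM (log2 0.51), Ifi47 56.9 and 65.6 CPM (log2 0.21), Igtp 20.3 and 30.6 CPM (log2 0.59) and Irgm1 23.6 and 29.6 CPM (log2 0.33).

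Of the remaining induced genes, 4 lay close to their adult level. Ifi44 had 46.0 and 55.9 CPM (log2 0.28), Rtp4 48.6 and 53.2 CPM (log2 0.13), Xaf1, an antagonist of the apoptosis inhibitor XIAP, 38.01 and 41.21 CPM (log2 0.12), and Ifi35 38.8 and 40.02 CPM (log2 0.04). Of the 39 members past the minimum Ifi27l2a alone lay past 2-fold, at 4.71 and 13.1 CPM (2.77-fold, log2 interval 1.33 to 1.61). Of adult CAR-like cells 1.99% held it, and of old ones 5.13%. Its level was 0 to 9.85 CPM in the other adult types, and 41.9 CPM in plasma cell-like and 99.5 CPM in neutrophil lineage-like cells of the old library. The part of free RNA from those cells in its CAR-like level was not tested.

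The 8 members under 10 CPM in both libraries were Ifit3b, Mx1, Oas1a, Oas2, Oas3, Gbp4, Gbp6 and Cmpk2, with 0.0606 to 8.68 CPM. Of these Oas2 (13 and 19 UMIs) and Oas3 (11 and 7 UMIs) were too scarce for a direction at this depth. Ifit3b (log2 0.62), Gbp6 (0.37) and Cmpk2 (0.79) passed the minimum, while Mx1 and Gbp4 did not.

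Free RNA adds UMIs per droplet whatever the cell, so the mean UMIs per cell are given beside those of the type where the gene was lowest, although no type is known to lack the members. Iigp1 had 2.99 UMIs per CAR-like cell (adult) and 5.32 (old), and 0.0536 and 0.197 per megakaryocyte-like cell. For Bst2 these means were 1.42 and 2.61 against 0.0689 and 0.103, and for Samhd1 4.02 and 3.31 against 0.107 and 0.113. Ifi35 had 0.314 and 0.325 UMIs per CAR-like cell against 0.0230 and 0.0375. The part of free RNA in these levels was not tested. The share of CAR-like cells with a UMI moved with the level at like depth (medians of 7246.5 and 7390.5 UMIs per cell): Iigp1 was found in 64.4% of adult against 74.1% of old cells, Bst2 in 57.2% against 73.1%, and Samhd1 in 87.0% against 82.1%. In megakaryocyte-like cells, the type where Samhd1 was lowest, 8.67% and 8.75% held it, at medians of 1494.5 and 1639.5 UMIs.

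Gene length, here the span of the gene on the chromosome with its introns (from GENCODE), moved with the ratios of all genes in CAR-like cells. With genes split by length into 4 groups of equal size, the median log2 ratio was -0.18 in the shortest group, -0.01 and 0.10 in the middle groups and 0.16 in the longest. Of the 39 members, 14 lay in the shortest group with a median of 0.43, 18 in the next with 0.46, 6 in the third with 0.56 and 1 (Rtp4) in the longest with 0.13. The members' median thus lay above that of genes of like length in the first 3 groups.

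The distribution over CAR-like cells was read after every cell was thinned at random to 3000 UMIs, which left out 1866 adult cells (12.4%) and 1785 old cells (12.6%) below that depth. Nearly every cell held member RNA: only 0.840% of adult cells and 0.652% of old ones had no member UMI. The median was 6 member UMIs per adult cell (quartiles 4 and 9) and 8 per old cell (quartiles 5 and 12), against 14 and 19 without thinning. The means were 7.38 ± 6.45 and 9.71 ± 8.15 (SD over cells, n = 13212 and 12417 cells of 1 library each). Thus the whole body of the distribution, and not its tail alone, lay higher in the old library.

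**Figure D2:**
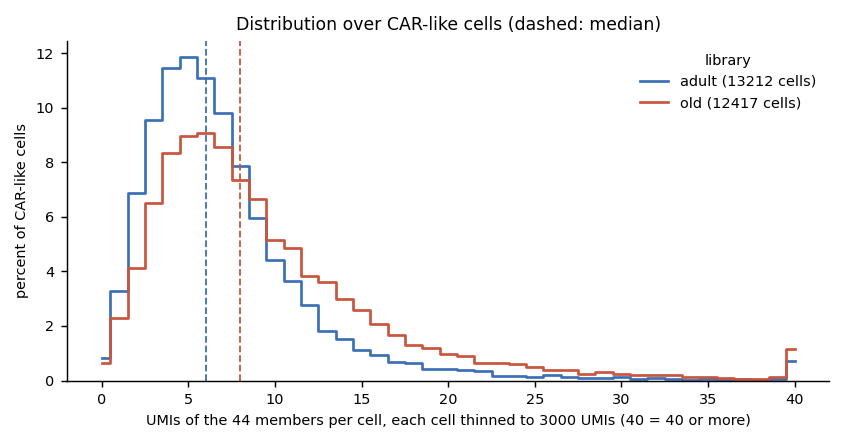
Percent of CAR-like cells by number of member UMIs after thinning each cell to 3000 UMIs, for 13212 adult (blue) and 12417 old (red) cells; dashed lines are the medians of 6 and 8, and the last step holds cells with 40 or more. The red curve is shifted right along its length and both have a long right tail.

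The upper tail also held more cells in the old library. At least 10 different members were detected in 6.85% of adult and 15.7% of old cells, and at least 20 member UMIs were found in 3.47% and 8.23%. The highest single cells had 104 and 135 member UMIs. The Fano factor (variance over mean, 1 for counting alone) was 5.64 (adult) and 6.84 (old). The concentration in few cells was nevertheless alike: the richest 10% of cells held 28.4% (adult) and 28.5% (old) of member UMIs, and the richest 1% held 6.76% and 5.93%.

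The richest 1% were 132 cells in each library, holding at least 34 (adult) or 42 (old) member UMIs after thinning, and 8 cells lay 1 UMI below that threshold in each. These cells were chosen by the sum, so their levels are a description. Iigp1 made up 30.6% (adult) and 33.5% (old) of their member UMIs, against 14.97% and 20.09% over all thinned cells, while Samhd1 made up 6.31% and 5.55% against 19.997% and 12.45%. Iigp1 thus took a larger and Samhd1 a smaller part of the sum in the richest cells. The median depth of the richest cells was 7547.5 UMIs against 7952.5 over all adult cells, and 7991 against 8023 in the old. Their CAR markers held 2.14% of UMIs against 2.35% in the adult and 2.22% against 2.45% in the old library.

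Single members differed in how unevenly they were spread. Iigp1 was the most uneven, with a Fano factor of 5.63 (adult) and 5.82 (old) after thinning, followed by Rsad2 with 3.25 and 2.50. Ifit3 had 2.31 and 1.98. In contrast, Samhd1, of similar abundance to Iigp1, had 1.51 and 1.59, and Bst2 1.46 and 1.46.

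Over cells, the summed UMIs of 14 antiviral members and of the vacuole GTPases rose together. Cells were ranked by a sum over 14 antiviral members (the IFIT, Mx and OAS genes with Isg15, Usp18, Rsad2 and Cmpk2), and the sum over 11 GTPases, none of them among the 14, was read. Samhd1 and Bst2 were in neither sum. Iigp1 alone held a mean of 1.10 of the 2.17 GTPase UMIs per adult cell and 1.95 of the 3.36 per old cell. The GTPase sum thus rested largely on this gene, and the other GTPases were not read without it. The mean GTPase count was 1.63 ± 0.0272 UMIs (SEM over cells) in the 7813 adult cells with no antiviral UMI and 14.2 ± 1.22 in the 74 adult cells with at least 10. In the old library it was 2.37 ± 0.0407 in 6464 cells and 14.6 ± 1.03 in 97 cells. These SEMs are over cells of 1 library, and no comparison of the ages is drawn from them. Over thinned cells of a library, which share its depth and free RNA, the Pearson correlation of both sums was 0.350 over 13212 adult and 0.372 over 12417 old cells, and Spearman's rho 0.235 and 0.328.

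Across cell types of at least 50 cells, the members were most expressed in CAR-like and endothelial-like cells. In the adult library CAR-like cells stood at 0.247% of UMIs and endothelial-like cells at 0.240%, followed by erythroid-like (0.141%) and pericyte or smooth muscle-like cells (0.137%), whose intervals overlapped, then megakaryocyte-like (0.113%), osteolineage-like (0.0544%) and chondrocyte-like cells (0.0334%). In the old library endothelial-like cells (0.344%) stood above CAR-like cells (0.324%), with pericyte or smooth muscle-like cells at 0.165%. Erythroid-like (0.143%), megakaryocyte-like (0.133%) and neutrophil lineage-like cells (0.120%) followed, each overlapping the next in its interval. Osteolineage-like (0.0810%) and plasma cell-like cells (0.0720%) were lowest. Chondrocyte-like cells were counted in the adult library only (142 cells), and plasma cell-like (1184) and neutrophil lineage-like cells (82) in the old only.

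**Figure D3:**
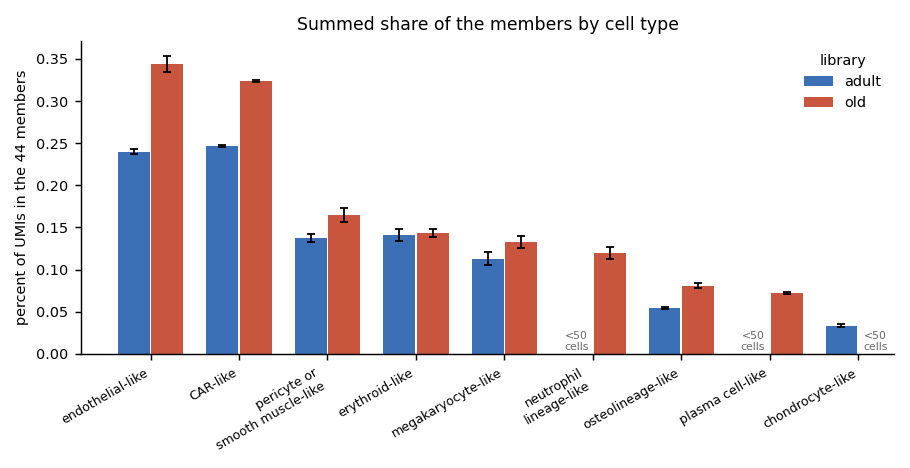
Percent of all UMIs of a cell type that belong to the 44 members, in the adult (blue) and old (red) library; bars start at 0 and whiskers are 95% exact binomial intervals that cover counting error only. Endothelial-like and CAR-like bars stand highest, erythroid-like bars are level (0.141% and 0.143%), and types with fewer than 50 cells in a library have no bar there.

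Osteolineage-like and endothelial-like cells showed summed ratios at least as large as CAR-like cells. The log2 ratio of old over adult was 0.57 in osteolineage-like cells (1.49-fold), 0.52 in endothelial-like cells (1.43-fold), 0.26 in pericyte or smooth muscle-like cells (1.20-fold) and 0.23 in megakaryocyte-like cells (1.17-fold). In erythroid-like cells it was 0.02, with an interval from -0.06 to 0.11. Over all kept cells together, where the mix of types differed, it was 0.12. There 26 of 37 members were higher (70.3%, beside 45.6% of all genes), 2 at least 2-fold (background 6.82% higher and 6.96% lower). The median was 0.16 against -0.04 for all genes. The osteolineage value depends on the gate, and turned to -0.17 when all marker thresholds were doubled. Doubling lowered the old osteolineage-like cells from 255 to 95 and raised the adult ones from 1664 to 2363.

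**Figure D4:**
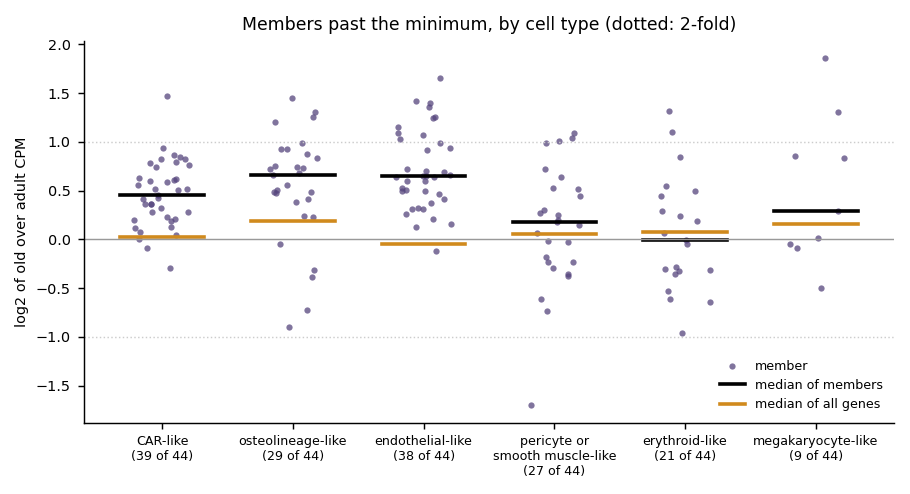
Log2 ratio of old over adult CPM for each member past the minimum (points), with the median of those members (black) and of all genes compared (orange), by cell type; dotted lines mark 2-fold. Members lie above the all-gene median in endothelial-like, osteolineage-like and CAR-like cells, and around it in erythroid-like cells (-0.01 against 0.08).

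In endothelial-like cells 37 of 38 members past the minimum were higher in the old library (97.4%, beside 45.5% of all genes). Of these, 10 were at least 2-fold higher, where 4.97% of all 10951 genes were at least 2-fold higher and 7.82% lower. All 4 IFIT genes were among the 10. Ifit1 had 13.5 and 42.4 CPM (110 and 59 UMIs, log2 1.65, interval 1.17 to 2.12), Ifit3 29.9 and 79.8 CPM (log2 1.42) and Irf7 19.9 and 52.5 CPM (log2 1.40). At the other end Bst2 had 269 and 248 CPM (log2 -0.12, interval -0.28 to 0.05), Iigp1 333 and 364 CPM (log2 0.13) and Irf9 51.5 and 57.5 CPM (log2 0.16). Iigp1 and Bst2 thus had larger ratios in CAR-like cells (log2 0.82 and 0.87) than in endothelial-like cells. Irf7 lay well above 0 in both types (0.85 in CAR-like cells). The old value rests on 303 cells against 1386. All 11 endothelial markers were detected in both libraries, 4 higher and 7 lower in the old one, and their sum was 0.960% and 0.901% of UMIs. Stab2, a scavenger receptor of sinusoidal endothelium, stood at 1362 and 213 CPM and was found in 55.4% and 19.1% of cells, and Ptprb stood at 1552 and 2676 CPM. The part of this marker difference in the member ratios was not tested.

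In osteolineage-like cells 24 of 29 members were higher and 4 at least 2-fold higher, against 8.36% of 10187 genes higher and 4.33% lower, with a median of 0.67 beside 0.19 for all genes. The 4 were Bst2 (57.3 and 156 CPM, log2 1.45, interval 1.32 to 1.57), Oasl2 (7.88 and 19.5 CPM, log2 1.31), Eif2ak2 (13.7 and 32.8 CPM, log2 1.26) and Parp14 (15.3 and 35.2 CPM, log2 1.21). Lower in the old library were Ifit1 (7.82 and 4.21 CPM, log2 -0.89), Rtp4 (8.41 and 5.09 CPM, log2 -0.72) and Irf1 (93.3 and 71.5 CPM, log2 -0.38). The interval of Bst2 thus lay above 0 in CAR-like and osteolineage-like cells. It held 0 in every other type compared, among them endothelial-like and pericyte or smooth muscle-like cells (71.2 and 78.9 CPM in the latter). Of all genes 63.9% were higher in old osteolineage-like cells, beside 82.8% of the members that passed. All 10 osteolineage markers were detected in both libraries, 4 higher and 6 lower in the old one, and their sum was 18.8% and 10.4% of UMIs. Bglap (osteocalcin) stood at 24431 and 10439 CPM and Col1a1 at 81360 and 33315 CPM, while Ibsp stood at 7959 and 23307 CPM and the osteocyte gene Dmp1 at 95.4 and 576 CPM. The part of this marker difference in the member ratios was not tested.

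Pericyte or smooth muscle-like cells, with 328 and 156 cells, were divided: 16 of 27 members were higher and 11 lower, with a median of 0.18 against 0.06 for all genes. The share of members higher (59.3%) lay near that of all genes (54.3%). At least 2-fold higher were the 3 immunity-related GTPases Iigp1 (129 and 276 CPM, log2 1.10), Irgm2 (22.4 and 45.9 CPM, log2 1.04) and Ifi47 (17.9 and 35.9 CPM, log2 1.005), where 5.3% of 7978 genes were at least 2-fold higher and 4.31% lower. Ifi44 was at least 2-fold lower, the opposite of its CAR-like direction, on 58 and 8 UMIs (26.0 and 7.99 CPM, log2 -1.70, interval -2.98 to -0.63). Isg15 (76.6 and 45.9 CPM, log2 -0.74) and Rtp4 (30.5 and 19.97 CPM, log2 -0.61) were the next lowest, and the Rtp4 interval held 0.

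Erythroid-like cells showed no common direction, with 10 of 21 members higher (47.6%, beside 54.9% of all genes) and a median of -0.01 against 0.08. Dtx3l (6.32 and 15.8 CPM, 7 and 46 UMIs, log2 1.32) and Parp9 (12.6 and 27.1 CPM, log2 1.10) were at least 2-fold higher, beside 5.39% of 5617 genes higher and 9.61% lower, and Cmpk2 followed at 16.2 and 29.2 CPM (log2 0.84). Irf1 (30.7 and 15.8 CPM, log2 -0.96), Gbp7 (22.6 and 14.4 CPM, log2 -0.65) and Iigp1 (39.7 and 26.1 CPM, log2 -0.61) were lowest. Only 9 members passed in megakaryocyte-like cells, where 6 (66.7%) were higher beside 60.8% of all genes, with a median of 0.29 beside 0.16. Isg15 (15 and 66 UMIs, 19.8 and 71.9 CPM, log2 1.86) and Iigp1 (21 and 63 UMIs, log2 1.31) were at least 2-fold higher, beside 11.3% of 3391 genes higher and 2.42% lower, followed by Rsad2 (log2 0.85). Samhd1 (log2 -0.50), Ifi47 (-0.08) and Igtp (-0.05) were lowest there, all with intervals that held 0. Across the 6 types compared, 4 members passed the minimum in every type, and 0 of these were higher in every type.

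Some members had their highest level far from the stroma. Rsad2 led in erythroid-like cells with 554 CPM (adult) and 550.4 CPM (old), 3.66 and 2.73 times the next type, endothelial-like cells, and was found in 68.1% and 67.9% of erythroid-like cells but in 2.43% and 5.53% of CAR-like cells. Isg15 was also highest there, at 229 and 313 CPM (log2 0.45). Igtp led in megakaryocyte-like cells with 508 and 492 CPM, where it made up 45.0% and 37.1% of all member UMIs, although these cells were shallow (medians of 1494.5 and 1639.5 UMIs). In CAR-like cells it stood at 20.3 and 30.6 CPM. Rsad2 likewise made up 39.3% and 38.4% of member UMIs in erythroid-like cells, so a single gene held the largest part of the sum in each of these types.

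Other members stood higher in endothelial-like cells or in blood cells than in CAR-like cells. Gbp4 had 45.0 and 107 CPM in endothelial-like cells against 1.57 and 3.33 CPM in CAR-like cells, and Trim25 79.2 and 124 CPM. Zbp1 stood at 131 CPM in plasma cell-like cells, 3.70 times its level in old CAR-like cells. Samhd1 had 342 CPM in neutrophil lineage-like cells, and CAR-like cells with 407 CPM remained its highest type in the old library. Oas3, almost absent from the stroma, reached 18.96 and 27.8 CPM in erythroid-like cells and 27.4 CPM in old neutrophil lineage-like cells. Counting which type held each member's highest level, endothelial-like cells led for 16 members (adult) and 23 (old), and CAR-like cells for 15 and 11. Some leads in the old library were narrow in either direction. Endothelial-like cells led CAR-like cells 1.03-fold for Mx2, and CAR-like cells led endothelial-like cells 1.03-fold for Ifih1. The share of all genes led by each type was not computed, so no shift between the libraries is read from these counts.

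**Figure D5:**
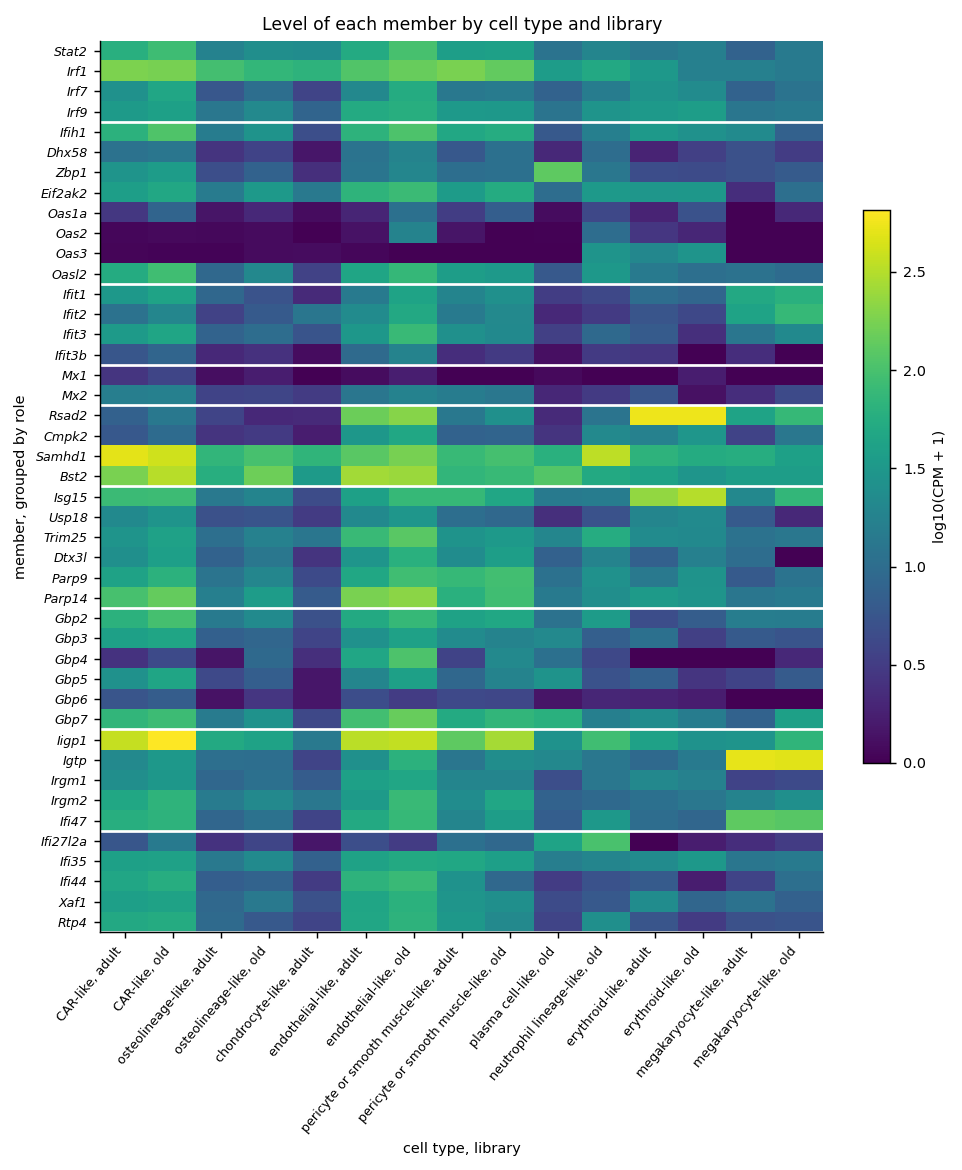
Level of each member (rows, grouped by role) in each cell type and library of at least 50 cells (columns), as log10 of CPM plus 1. Bright cells off the CAR-like and endothelial-like columns mark Rsad2 and Isg15 in erythroid-like, Igtp and Ifi47 in megakaryocyte-like, Zbp1 in plasma cell-like and Samhd1 in neutrophil lineage-like cells.

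The rest of the interferon pathway was read from a list of other genes, of which 42 were found and 27 passed the minimum in CAR-like cells. Of the 27, 20 were higher and 7 lower in the old library, 0 reached 2-fold, and the median was 0.17. Of all 11006 genes compared, 53.1% were higher, 3.02% reached 2-fold upwards and 2.28% downwards, and the median was 0.03. No interferon gene was seen beyond stray UMIs: none of the 9 ligands searched passed, and the most counted was Ifnk with 5 adult and 8 old UMIs in CAR-like cells. Ifng had 1 and 0 UMIs, and Ifnb1 had 0 in both libraries, with an upper exact Poisson bound of 0.0303 CPM (adult) and 0.0320 CPM (old).

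The receptors differed little. Ifnar1 (55.5 and 59.1 CPM, log2 0.09) and Ifnar2 (173 and 185 CPM, log2 0.10) form the type I receptor, and Ifngr1 (199 and 219 CPM, log2 0.14) and Ifngr2 (109.5 and 102.2 CPM, log2 -0.10) the type II receptor. Il10rb (10.3 and 11.8 CPM, log2 0.20), a chain that type III interferons share with other ligands, was present, while their private chain Ifnlr1 had 3 and 4 UMIs. CAR-like cells of both libraries thus held transcripts of both chains of the type I and type II receptors.

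Below the receptors the kinases were more uneven. Jak2, which serves the type II receptor, had 108 CPM in adult against 171 CPM in old cells (log2 0.67). Jak1 (373 and 352 CPM, log2 -0.08) and Stat3 (387 and 396 CPM, log2 0.03) were close to level, and Tyk2, the type I partner of Jak1, had 13.7 and 19.7 CPM (log2 0.52). Of 7 inhibitors 6 passed the minimum, 4 lower and 2 higher in the old library. Socs1, which blocks JAK kinases, had 23.0 and 15.1 CPM (log2 -0.61), and Socs3, the brake of the Stat3 branch, 426 and 268 CPM (log2 -0.67). The phosphatases Ptpn1 and Ptpn2 were lower by less (log2 -0.11 and -0.12), and Pias1 (log2 0.26) and the phosphatase Ptpn11 (log2 0.20) were higher. Of 15 sensors and adaptors 11 passed, 10 higher and 1 lower, with a median of 0.31. Among them Irf8 had 34.7 and 52.7 CPM (log2 0.60). Summed over CAR-like cells, Jak2, Tyk2, Pias1 and Ptpn11 were thus higher in the old library, and Jak1, Socs1, Socs3, Ptpn1 and Ptpn2 lower. In endothelial-like cells 27 genes of the whole list passed, 14 higher and 13 lower, with a median of 0.003 (all genes -0.05). These genes were not read cell by cell beside the members, and their part in the member ratios was not tested.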

How the data were processed

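Count matrices of UMIs per gene and cell barcode, deposited by the authors, were made with Cell Ranger 7.0.1 (per the file headers) on GRCm39 (per the submitters' processing notes). Barcodes with at least 500 genes and at most 10% mitochondrial UMIs were kept. The lowest total among barcodes was 500 UMIs, and no empty droplets were used here. A cell was assigned to a type when at least 3 markers of the type were detected and their summed share of UMIs passed a threshold set after the marker distributions were seen (1% for CAR-like cells), and cells passing no gate (6.08% of adult, 9.88% of old) or several gates were left out; no doublet caller was run.

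UMIs were summed over the cells of a type and divided by its total (CPM). Intervals (95%) are exact Poisson for levels, conditional binomial for ratios and exact binomial (Clopper-Pearson) for shares. Members with at least 10 CPM in CAR-like cells of either library are named with values; elsewhere the 3 highest and 3 lowest ratios and any 2-fold ratio opposite to CAR-like cells; of other pathway genes, those at least 1.5-fold apart, receptors and STATs, of which 1 is not reported here. Members, lists and markers were chosen with earlier results of these data known. Python 3.11.15, scipy 1.17.1 and scanpy 1.11.5 were used.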

Additional observations from a re-analysis of the deposited data

Results flagged for a closer look

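For 6 members the ratio of old over adult in another cell type lay on the opposite side of 0 from that in CAR-like cells, with both counting intervals clear of 0. The share of all genes with such opposite ratios was not computed, so this count has no background beside it. None of these differences between types was tested, since each age has 1 library. Against CAR-like cells, where Samhd1 had a log2 ratio of -0.29, it was 0.48 in osteolineage-like and 0.47 in endothelial-like cells. Irf1 was 0.38 in endothelial-like and -0.09 in CAR-like cells. In osteolineage-like cells Ifit1 was -0.89 (0.45 in CAR-like cells), Iigp1 -0.32 (0.82) and Rtp4 -0.72 (0.13). Ifi44 was -1.70 in pericyte or smooth muscle-like and 0.28 in CAR-like cells, and Iigp1 was -0.61 in erythroid-like cells. The osteolineage-like values rest on 255 old cells and the pericyte or smooth muscle-like ones on 156.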

How the results depend on the processing

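No paired analysis was possible because each age has 1 library. In CAR-like cells 35 to 37 of the 39 members stayed higher in the old library under every alternative that kept them, and the summed log2 ratio stayed between 0.37 and 0.45. The causes of the shifts below were not tested. The share of all genes at least 2-fold higher was not computed under the alternatives, so the counts of such members have no background beside them. With marker thresholds doubled, 5 members were at least 2-fold higher in CAR-like cells (main value 1), their median was 0.61 (main 0.45), and the summed ratios were 0.45 in CAR-like, 0.62 in endothelial-like, 0.17 in pericyte or smooth muscle-like, -0.17 in osteolineage-like and -0.032 in erythroid-like cells. With types taken from clusters made without the members, whose clusters separated largely by library, 2 members were at least 2-fold higher, and the summed ratios were 0.44 in CAR-like, 0.42 in osteolineage-like and -0.0058 in erythroid-like cells. With the deepest 10% of cells left out the count was 2, the median 0.53, and the sums 0.40 in CAR-like, 0.36 in endothelial-like and -0.0085 in megakaryocyte-like cells. Centring on all genes gave sums of 0.37, 0.57 (endothelial-like), 0.39 (osteolineage-like) and -0.052 (erythroid-like). Weighting cells alike gave 0.40, 0.45 and 0.34 in CAR-like, endothelial-like and osteolineage-like cells. Subtracting the lowest level of any type gave 4 members at least 2-fold higher, 0.71 in osteolineage-like and -0.048 in erythroid-like cells. Centring by gene length also gave 4, with Irf1 at 0.026 and Rtp4 at -0.038; it gives no summed value. A minimum of 1 CPM gave 3 and a minimum of 50 CPM gave 0, with 14 of 16 members higher. At most 5% mitochondrial UMIs gave 0.63 in osteolineage-like cells, and at least 1000 genes -0.074 in erythroid-like cells. In megakaryocyte-like cells the sum (main 0.23) was 0.69 with at least 1000 genes, 0.069 centred and 0.068 with cells weighted alike. The value of 0.69 rests on 33 adult cells, under the minimum of 50, and 77 old cells. In erythroid-like cells the sum (main 0.023) was 0.21 with the deepest cells left out. Isg15 turned to -0.0038 (1000 genes), -0.015 (5% mitochondrial), -0.022 (centring) and -0.18 (lowest level subtracted), and Ifi35 to -0.26 (lowest level subtracted). Precision outside CAR-like cells is limited by the few cells of each type. With the main gates the old library held fewer cells of each type compared, except erythroid-like cells (135 adult and 287 old).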
